A study of Rattus norvegicus with 59 samples.

Results

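The Rab GTPases of INS-1E cells, a β-cell line from a rat insulinoma in which glucose drives insulin secretion, were examined in all entries of the expression table whose gene symbol begins with Rab followed by a digit. The rule matched 62 of 18331 transcript entries, under 61 symbols. Of these, 55 are Rab GTPases and 7 are not GTPases but proteins that act on Rabs (Rab3gap2, Rab3il1, Rab3ip, Rab11fip2, Rab11fip4 and both entries of Rab11fip1). RNA was sequenced from cells kept for 72 h in 11.1 mM glucose (normal glucose, NG, n = 20), for 72 h in 20 mM glucose (high glucose, HG, n = 20), or for 72 h in 20 mM glucose with drugs present in the last 48 h (HG + drugs, n = 19). The drugs were the GLP-1 receptor agonist exendin-4 at 50 nM, the glucose-lowering drug metformin at 250 μM and the anti-inflammatory agent sodium salicylate, also at 250 μM. All groups are of 1 cell line. The drugs were given only together, so the effect of a single drug cannot be told apart from that of the mixture. No group had the drugs in normal glucose. A reversal of the glucose effect therefore cannot be told apart from a drug effect that would also occur in normal glucose.

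Rab proteins are small GTPases that sit on the membranes of the secretory and endocytic routes, each on its own set of compartments. In the GTP-bound form, made by an exchange factor, a Rab recruits effectors such as tethers and motors. A GTPase-activating protein ends this state, and GDP dissociation inhibitor (GDI) then takes the prenylated Rab off the membrane. In β-cells, Rab3 and Rab27 proteins lie on insulin granules and act in their docking and release, while Rab5, Rab7, Rab4 and Rab11 mark early, late and recycling endosomes and Rab1, Rab2 and Rab6 act between the endoplasmic reticulum (ER) and the Golgi. The GTPases were accordingly divided into secretory granule Rabs (7 entries, namely Rab3a, Rab3b, Rab3c, Rab3d, Rab26, Rab27a and Rab27b), endosomal Rabs (20), ER and Golgi Rabs (14), exocytic and ciliary Rabs (7) and lysosome-related and other Rabs (7). Many Rabs act on more than a single compartment, and the division follows their best known place.

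Because Rab27a, Rab27b, Rab3a, Rab3c and Rab3d fell together with HG (described further on), the 250 bases before their transcription start sites are shown, from RefSeq in assembly GRCr8, 5′ to 3′ in the direction of the gene. They lie at chr8:82663123-82663372 (+ strand, Rab27a), chr18:65938584-65938833 (− strand, Rab27b), chr16:18722274-18722523 (− strand, Rab3a), chr2:43575944-43576193 (− strand, Rab3c) and chr8:28725268-28725517 (− strand, Rab3d). Capitals mark GC boxes (GGGCGG, or CCGCCC for the opposite strand).
Rab27a: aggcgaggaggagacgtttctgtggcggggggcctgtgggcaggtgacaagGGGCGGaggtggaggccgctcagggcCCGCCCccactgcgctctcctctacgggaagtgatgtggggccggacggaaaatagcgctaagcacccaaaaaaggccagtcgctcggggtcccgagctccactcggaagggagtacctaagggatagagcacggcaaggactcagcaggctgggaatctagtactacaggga
Rab27b: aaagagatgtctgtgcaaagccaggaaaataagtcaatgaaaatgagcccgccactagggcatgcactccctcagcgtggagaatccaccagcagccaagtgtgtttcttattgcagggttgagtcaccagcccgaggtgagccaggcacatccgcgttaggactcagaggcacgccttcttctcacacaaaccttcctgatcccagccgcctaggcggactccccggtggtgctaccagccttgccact
Rab3a: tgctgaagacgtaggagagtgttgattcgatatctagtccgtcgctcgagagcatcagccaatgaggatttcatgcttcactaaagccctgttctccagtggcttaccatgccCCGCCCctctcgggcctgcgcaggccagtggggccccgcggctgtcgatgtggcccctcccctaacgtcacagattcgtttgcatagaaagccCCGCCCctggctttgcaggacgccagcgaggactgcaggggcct
Rab3c: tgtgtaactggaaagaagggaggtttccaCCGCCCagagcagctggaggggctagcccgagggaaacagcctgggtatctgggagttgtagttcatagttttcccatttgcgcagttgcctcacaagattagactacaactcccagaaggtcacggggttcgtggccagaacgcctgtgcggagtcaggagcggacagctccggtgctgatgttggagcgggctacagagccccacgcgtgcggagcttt
Rab3d: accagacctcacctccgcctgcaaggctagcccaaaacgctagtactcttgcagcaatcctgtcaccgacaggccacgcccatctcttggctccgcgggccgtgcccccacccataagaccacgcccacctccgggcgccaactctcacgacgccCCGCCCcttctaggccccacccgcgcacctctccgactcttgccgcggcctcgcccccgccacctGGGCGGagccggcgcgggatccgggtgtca
In these 250 bases, Rab27a, Rab3a and Rab3d have 2 GC boxes each, Rab3c has 1 and Rab27b has 0. Rab3b, a granule Rab that was not called with HG, also has 0 in the 250 bases before its start. A window of 300 bases (250 before and 50 after the start) was found for 45 of the 55 GTPases, with 46 windows in all. A GC box was present in 36 of the 46 windows (78.3%), among them 5 of the 6 of the granule Rabs, against 65.0% of 7868 windows of tested symbols and 33.1% of all 33469 windows. None of the 46 windows held TATAAA, which 6.13% of the windows of tested symbols and 14.2% of all windows did. CCAAT was found in 37.0% of the Rab windows, against 37.7% and 37.5%. Both strands were searched, and a match describes the letters only.

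The authors estimated FPKM (fragments scaled by transcript length and by the mapped reads of the library), so levels of different genes can be set side by side. The depth read from the spacing of low FPKM values was 6.95 to 10.3 M reads per library (median 8.61). Differences were tested in limma on log2(FPKM + 1) over the 10660 entries with a mean of at least 1 FPKM, with Benjamini-Hochberg adjustment over all of them and a threshold of 0.05. This scale understates the change of genes at a few FPKM. The replicates are described as independent experiments. A lower level per cell and fewer expressing cells cannot be told apart in these bulk samples. The β-cell label fitted the markers, with Ins1 at a median of 65525 FPKM in NG, and the summed FPKM of 8 exocrine, stromal and blood cell markers was at most 2.14 in any library. Of other islet hormones, the glucagon gene Gcg had a median of 914 FPKM in NG, while the medians of Sst and Ppy were 0.

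Of the 62 entries, 56 passed the minimum and were tested, among them 49 of the 55 GTPases and all 7 granule Rabs. The GTPases not tested were Rab19, of the Golgi (mean 0.629 FPKM over all libraries), the epithelial recycling Rab Rab25 (0.176), the melanosome Rabs Rab32 (0.0719) and Rab38 (0.00995), and Rab7b and Rab17, which were listed at 0 FPKM in all libraries. The highest mean level over all libraries was that of Rab1a, which acts in ER to Golgi transport, at 272 FPKM. It was followed by Rab2a of the same step (238), the late endosomal Rab7a (173), the recycling endosomal Rab11b (109), Rab14 of the Golgi and endosomes (103) and the early endosomal Rab5c (103). Rab11b, Rab14 and Rab5c lay within each other's range, since in NG they spanned 104 to 119, 89.3 to 116 and 90.5 to 116 FPKM. The granule Rabs spread from Rab3a, with an NG mean of 106 ± 4.96 FPKM (SD, n = 20), and Rab3d, with 87.0 ± 6.31, down to Rab27b, with 2.65 ± 0.734. Over the NG libraries, the coefficient of variation of the tested GTPases ran from 2.60% for Rab7a to 30.3% for Rab20, and was 27.6% for Rab27b. The entries of Rab2a (638 bases), Rab5a (647), Rab39a (654), Rab12 (680), Rab8b (726), Rab13 (760) and Rab14 (760) are short, and effective length makes FPKM less certain there.

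**Figure D1:**
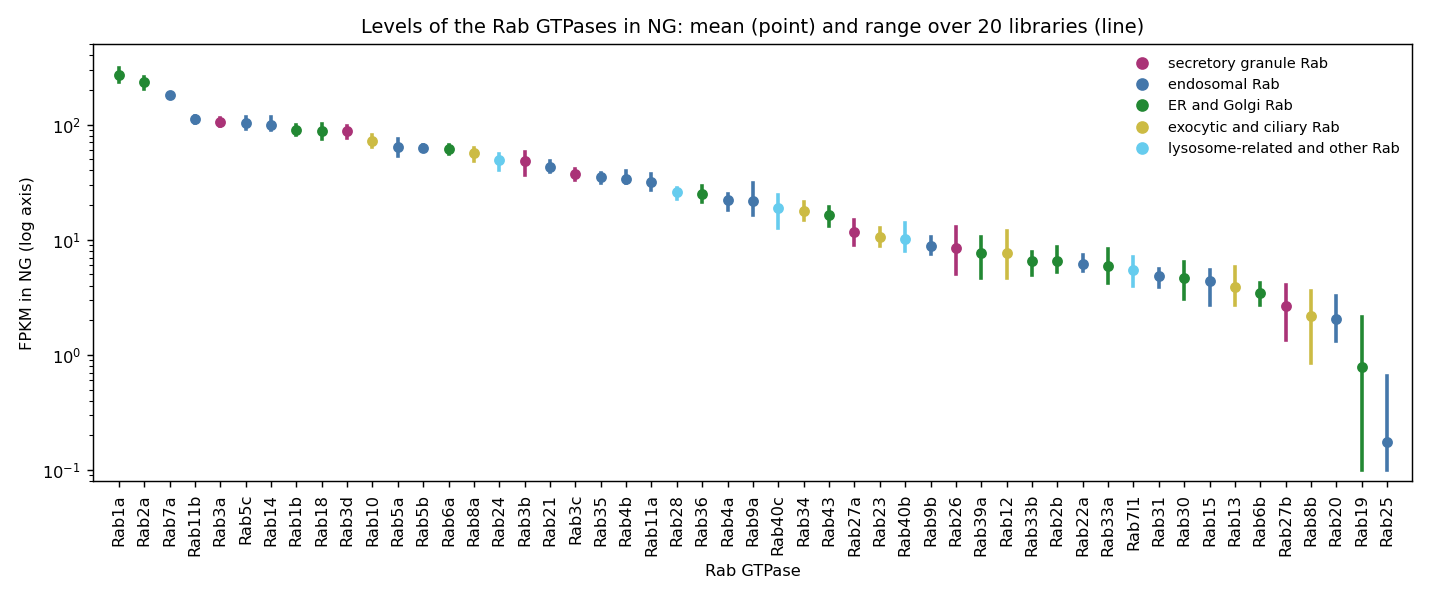
FPKM of the Rab GTPases in the 20 NG libraries on a log axis, with the mean as a point and the lowest to highest library as a line, coloured by class, for GTPases with a mean above 0.1 FPKM. Lines are drawn down to 0.1 FPKM at the lowest. Rab1a and Rab2a stand highest, and the granule Rabs range from Rab3a (106 FPKM) to Rab27b (2.65 FPKM).

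The first comparison asked which Rabs changed after 72 h in HG compared to NG. The granule Rabs moved down: 5 of 7 fell (Rab27a, Rab3c, Rab27b, Rab3a and Rab3d), and 0 rose. The Rabs of endosomes and of the ER and Golgi moved both ways, with 6 of 30 that rose and 4 that fell. Over all 49 GTPases, 7 rose and 12 fell, a share of 14.3% and 24.5%, while 18.2% of all entries tested rose and 22.0% fell. The median log2 fold change was -0.28 for the granule Rabs and -0.02 for all entries tested. It was -0.02 for the endosomal Rabs, 0.02 for the ER and Golgi Rabs and -0.23 for the lysosome-related and other Rabs. Of the 5 lysosome-related and other Rabs tested, 3 fell (60%) and 1 rose (20%), so lower levels with HG were not limited to the granule class. At an unadjusted p under 0.05, the limma fit still gave 0 granule Rabs that rose, and 6 that fell. No test was made of the granule Rabs as a class.

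Rab27a, the Rab that holds granules at the plasma membrane through its effectors, ranged from 8.96 to 14.7 FPKM in NG (median 11.7) and from 4.84 to 10.6 FPKM in HG (median 7.76). All 20 HG libraries were below the NG median, and 16 of 20 were below the lowest NG library. On the log2 scale Rab27a changed by -0.52 (SE 0.06, limma, Benjamini-Hochberg adjusted p = 6.53e-10), the largest fall among the GTPases. Its close paralog Rab27b was low, at 1.35 to 4.02 FPKM in NG (median 2.68) and 1.22 to 2.72 FPKM in HG (median 1.97), or about 12.7 reads per library on average. The groups overlapped, but 18 of 20 HG libraries were below the NG median, and the difference was -0.29 (SE 0.09, adjusted p = 0.00865).

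Rab3a, a regulator of granule docking, had the highest mean level of the Rab3 genes in NG. It ranged from 96.1 to 113 FPKM in NG (median 107) and from 80.4 to 95.3 FPKM in HG (median 86.8). The groups did not overlap, as all 20 HG libraries were below the lowest of NG. The difference was -0.28 on the log2 scale (SE 0.03, adjusted p = 6.09e-14). Rab3a overlaps the gene Mpv17l2 in the GRCr8 annotation, and a kit that does not mark strand cannot separate reads of the shared stretch. The level of Mpv17l2 was a mean of 23.4 FPKM in NG and 21.3 FPKM in HG (log2 fold change -0.13, adjusted p = 0.0551).

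Rab3c, a paralog found in neurons and endocrine cells, ranged from 32.7 to 41.5 FPKM in NG (median 37.1) and from 23.3 to 36.7 FPKM in HG (median 27.5). In HG, 19 of 20 libraries were below the lowest NG library, and the exception, at 36.7 FPKM, was replicate 13. The difference was -0.42 (SE 0.05, adjusted p = 2.95e-11). Rab3d, known from the large granules of exocrine cells, ranged from 76.4 to 96.9 FPKM in NG (median 87.4) and from 65.4 to 91.9 FPKM in HG (median 76.5). Here 10 of 20 HG libraries were below all of NG, and the difference was smaller, -0.15 (SE 0.03, adjusted p = 0.000126).

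For Rab3b and Rab26 no change was called. Rab3b ranged from 36.6 to 57.5 FPKM in NG (median 48.9) and from 37.2 to 63.0 FPKM in HG (median 44.0), a difference of -0.11 (95% interval -0.23 to -0.0026, adjusted p = 0.104). Rab26, which acts in granule maturation in exocrine cells, ranged from 5.08 to 12.8 FPKM in NG (median 7.94) and from 5.06 to 11.5 FPKM in HG (median 7.08), with a difference of -0.15 (95% interval -0.33 to 0.03, adjusted p = 0.194). The intervals of both leave room for a fall as large as that of Rab3d.

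**Figure D2:**
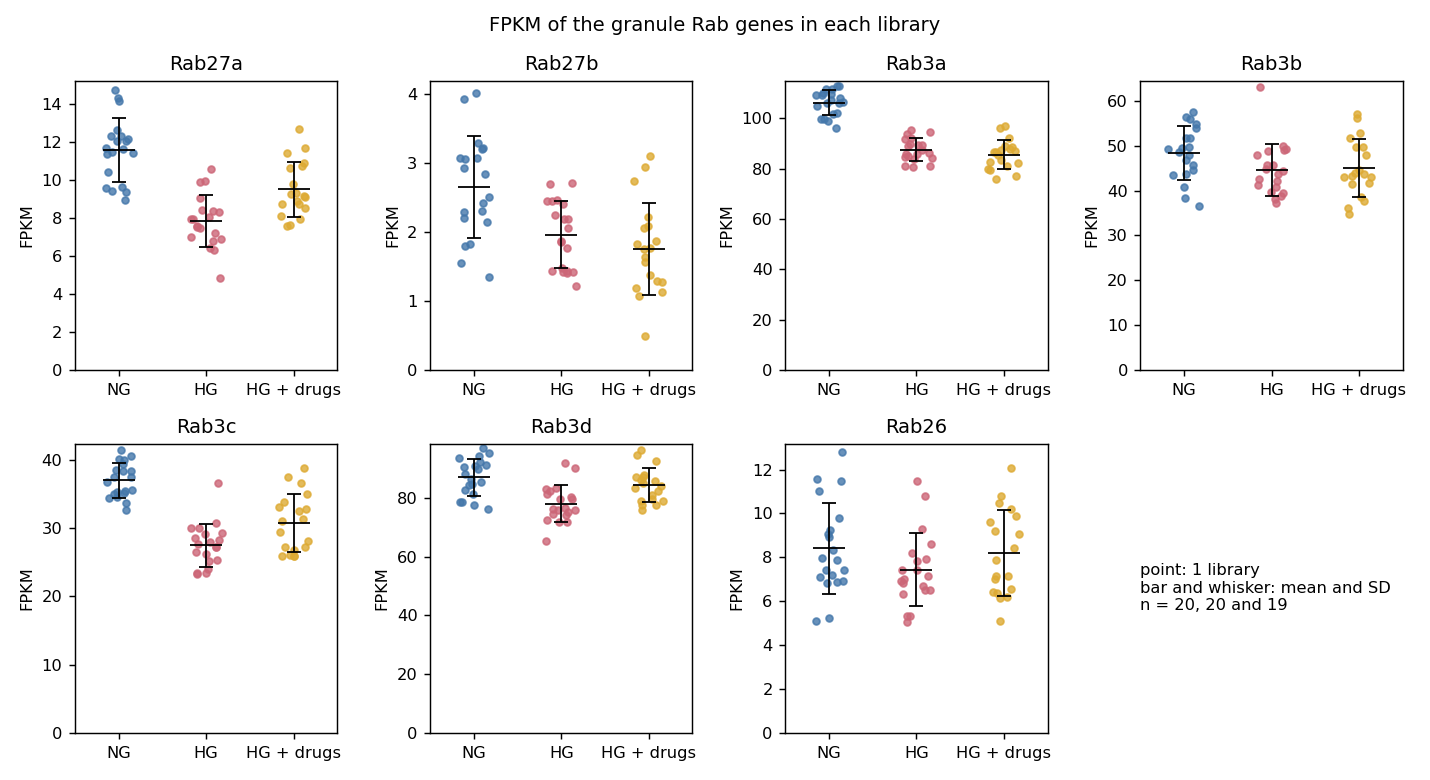
FPKM of each granule Rab in every library (points) of NG (n = 20), HG (n = 20) and HG + drugs (n = 19), with the mean and SD of the group in black. Rab3a is lower in all HG libraries than in any NG library, while Rab3b and Rab26 overlap widely.

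As a sum, the 7 granule Rabs had 273 to 319 FPKM in NG (median 302) and 235 to 282 FPKM in HG (median 254). Their share of the FPKM of all Rab GTPases had a mean of 13.5% ± 0.501 (SD, n = 20) in NG and 11.7% ± 0.568 (n = 20) in HG. Summed levels of the endosomal Rabs had medians of 835 and 818 FPKM, and those of the ER and Golgi Rabs 815 and 823 FPKM, in NG and HG. Within the Rab3 family, the mean share of Rab3a was 38.1% in NG and 36.8% in HG, that of Rab3c 13.3% and 11.6%, and that of Rab3d 31.3% and 32.8%.

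Markers of the β-cell moved with the granule Rabs. Of 11 marker entries tested, 8 fell with HG (72.7%, against 22.0% of all entries) and 0 rose (0 also at an unadjusted p under 0.05, against 18.2% of all entries that rose), among the falls the zinc transporter gene Slc30a8 of the granule (-0.36) and Ins2 (-1.82), and their summed level ranged from 75110 to 119056 FPKM in NG and from 43694 to 84631 FPKM in HG. Ins1 and Ins2 together held 14.1% of the summed FPKM in NG and 9.41% in HG. Their part in the changes of the Rabs was not tested. With libraries rescaled by the median ratio, each of the 5 granule Rabs that fell was still called. The direction was also the same in each of the 4 sets of 15 consecutive sample numbers, which may or may not be the sequencing batches, since the sources used here do not say which libraries those held. Rab27a was at -0.46, -0.50, -0.56 and -0.54 in these sets, Rab3c at -0.45, -0.39, -0.42 and -0.42, and Rab3a at -0.30, -0.22, -0.30 and -0.28.

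Among the ER and Golgi Rabs, the largest changes with HG were those of Rab33a, Rab36 and Rab43. Rab33a, a Golgi Rab known for the transport of vesicles into axons, ranged from 4.22 to 8.26 FPKM in NG (median 5.91) and from 4.38 to 10.3 FPKM in HG (median 8.78). In HG, 19 of 20 libraries were above the NG median and 11 were above all of NG, and the difference was 0.42 (SE 0.07, adjusted p = 4.65e-07). Its paralog Rab33b, known from autophagosome formation, had means of 6.49 FPKM in NG and 6.43 FPKM in HG. As a ratio of levels, Rab33a over Rab33b had a median of 0.897 in NG and 1.29 in HG.

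Rab36, which has been tied to the Golgi and to the placement of lysosomes, was the Golgi Rab that fell. It ranged from 21.3 to 29.1 FPKM in NG (median 24.8) and from 16.7 to 22.8 FPKM in HG (median 19.1). All 20 HG libraries were below the NG median and 18 were below all of NG (log2 fold change -0.37, SE 0.04, adjusted p = 1.66e-12). Rab43, which acts in ER to Golgi transport of receptors, rose from a mean of 16.2 ± 1.92 FPKM (SD, n = 20) to 19.5 ± 2.31 FPKM (n = 20), by 0.25 (SE 0.05, adjusted p = 2.49e-05). Rab6a, of retrograde Golgi traffic and secretory vesicles, rose by 0.10 (SE 0.02, adjusted p = 0.000162), from a mean of 60.8 to 65.2 FPKM, and its model overlaps those of Mrpl48 and Plekhb1. The 9 others were not called, and those at the highest levels moved little, with Rab1a at 0.01 (95% interval -0.05 to 0.07) and Rab2a at 0.02 (95% interval -0.04 to 0.08).

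Among the 17 endosomal Rabs tested, 3 rose and 3 fell with HG (17.6% each), shares near the 18.2% and 22.0% of all entries. Paralogs went apart. Rab4a of the fast recycling endosome rose from a mean of 22.0 ± 1.62 FPKM (SD, n = 20) to 24.7 ± 1.83 FPKM (n = 20), by 0.16 (SE 0.03, adjusted p = 7.71e-05), while Rab4b fell from 33.5 ± 2.56 to 29.6 ± 3.00 FPKM, by 0.18 (SE 0.04, adjusted p = 5.7e-05). The ratio of Rab4a to Rab4b had a median of 0.677 (range 0.524 to 0.745) in NG and 0.837 (0.594 to 1.01) in HG. Rab11a of the recycling endosome rose by 0.10 (SE 0.03, adjusted p = 0.00797), and Rab11b, at a level of 111 FPKM (NG) and 109 FPKM (HG), gave -0.03 (95% interval -0.08 to 0.01). Whether Rab11a and Rab11b differed in response was not tested.

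Rab7a, which leads late endosomes to fusion with lysosomes, ranged from 171 to 187 FPKM in NG (median 181) and from 155 to 179 FPKM in HG (median 167). All 20 HG libraries were below the NG median and 15 were below all of NG, so that this highly expressed Rab fell by 0.11 (SE 0.02, adjusted p = 3.66e-06). Rab15, an inhibitor of early endocytic steps, rose by 0.17 (SE 0.05, adjusted p = 0.00704), from 4.36 to 5.00 FPKM. Rab5b of the early endosome, with a mean of 62.6 FPKM in NG and 60.6 FPKM in HG, fell by 0.05 (SE 0.02, adjusted p = 0.0395), a call that was lost on leaving out any of 15 libraries. They were HG replicates 1, 4, 6, 9, 12, 14, 16 and 19 and NG replicates 5, 8, 11, 13, 17, 18 and 20, and without HG replicate 9 the adjusted p was 0.082.

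Of the remaining GTPases, the SOCS-box Rabs, which serve ubiquitin ligases, fell. Rab40b ranged from 8.05 to 13.9 FPKM in NG (median 10.1) and from 6.05 to 10.5 FPKM in HG (median 7.98), and 11 of 20 HG libraries were below all of NG (log2 fold change -0.28, SE 0.06, adjusted p = 0.000176). Rab40c, which overlaps Mettl26, fell by 0.28 as well (SE 0.07, adjusted p = 0.00108), from a mean of 18.8 to 15.3 FPKM. Rab7l1, now named Rab29 and known for recruiting the kinase LRRK2, fell by 0.23 (SE 0.07, adjusted p = 0.00493), and Rab24, which has been tied to autophagy, rose by 0.14 (SE 0.03, adjusted p = 0.000514).

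Of the 7 exocytic and ciliary Rabs, 0 rose and 0 fell in the limma fit, and at an unadjusted p under 0.05 there were 0 and 1. Of all entries tested, 18.2% rose and 22.0% fell, and 7 entries are too few to set this class apart. Rab8a and Rab10, which act in transport to the plasma membrane, gave 0.03 each, with 95% intervals of -0.02 to 0.07. Of the 7 matched entries that are not GTPases, 2 fell (28.6%, against the same 22.0%) and 0 rose (0 also at an unadjusted p under 0.05). Rab3il1, an exchange factor for Rab3a, had a median of 1.84 FPKM in NG (range 1.04 to 3.58) and of 1.50 FPKM in HG (range 0.384 to 2.04), and fell by 0.31 (SE 0.09, adjusted p = 0.00527). The Rab11 effector Rab11fip1 fell in the longer of its 2 entries, from a mean of 1.66 to 1.30 FPKM (-0.22 on the log2 scale, SE 0.06, adjusted p = 0.00438), while the other entry was at 2.85 and 2.87 FPKM. Cufflinks divides the reads that entries of a symbol share.

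**Figure D3:**
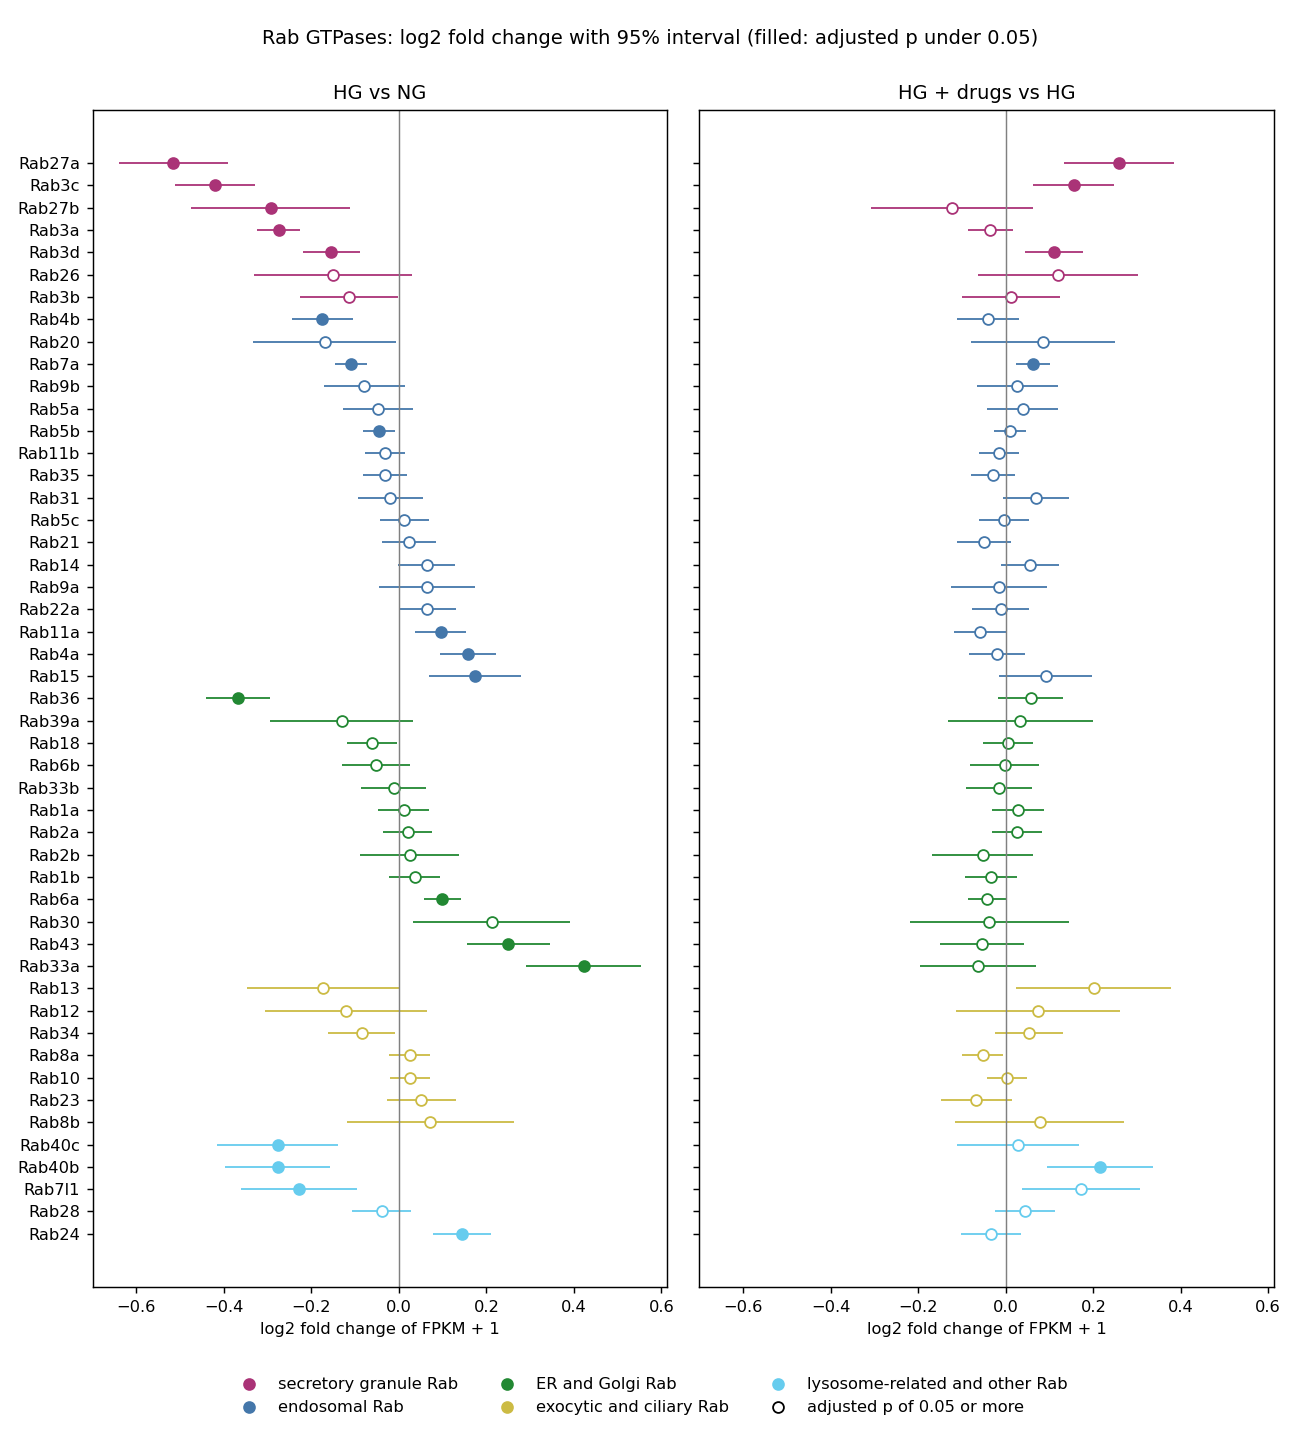
Log2 fold change on the log2(FPKM + 1) scale of the 49 GTPases tested, with HG against NG on the left and HG + drugs against HG on the right, coloured by class. Lines are 95% intervals and filled points have an adjusted p under 0.05. The 7 granule Rabs, at the top, all lie left of 0 with HG.

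The second comparison asked what the drugs did to the Rabs when added during the last 48 h of HG. A few Rabs rose and none was called lower: 5 of 49 GTPases rose, namely the granule Rabs Rab27a, Rab3c and Rab3d with Rab7a and Rab40b, and 0 fell. This share of 10.2% stood against 4.17% of all entries tested that rose and 4.48% that fell, and at an unadjusted p under 0.05 the limma fit gave 7 GTPases that rose and 1 that fell. All 5 had fallen with HG. When the replicate number was a block in the fit, GTPases that fell with drugs were also called, as given with the processing further on. Both comparisons share the HG libraries, so a high or low HG value by chance moves both, and their opposite signs are not independent.

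Rab27a ranged from 7.61 to 12.7 FPKM in HG + drugs (median 9.16), compared with 4.84 to 10.6 FPKM in HG (median 7.76). With drugs 17 of 19 libraries were above the HG median and 6 were above all of HG, and the difference was 0.26 (SE 0.06, limma, Benjamini-Hochberg adjusted p = 0.00519). Rab3c ranged from 25.9 to 38.8 FPKM with drugs (median 31.1), and 12 of 19 libraries were above the HG median (0.15, SE 0.05, adjusted p = 0.0282). The call for Rab3c was lost without HG + drugs replicate 7 (adjusted p = 0.0517) and without HG + drugs replicate 15 (adjusted p = 0.0569), and also when HG and HG + drugs were fitted without NG (adjusted p = 0.062). Rab3d ranged from 76.0 to 96.4 FPKM with drugs (median 84.0), and 18 of 19 libraries were above the HG median (0.11, SE 0.03, adjusted p = 0.0273, or 0.0514 without HG + drugs replicate 3).

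The other granule Rabs did not pass the test. Rab3a ranged from 75.9 to 96.7 FPKM with drugs (median 86.4), close to its HG range, and the difference of -0.04 had a 95% interval of -0.09 to 0.02. Rab27b was at a median of 1.75 FPKM with drugs (-0.12, 95% interval -0.31 to 0.06), Rab3b at 43.8 FPKM (0.01, 95% interval -0.10 to 0.12) and Rab26 at 7.88 FPKM (0.12, 95% interval -0.06 to 0.30). The ratio of Rab3a to Rab3d had a median of 1.25 in NG (range 1.04 to 1.39), of 1.14 in HG (0.891 to 1.27) and of 1.02 with drugs (0.825 to 1.25). Whether the paralogs differed in their response to the drugs was not tested.

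Rab7a ranged from 158 to 192 FPKM in HG + drugs (median 175), and the rise of 0.06 (SE 0.02, adjusted p = 0.0327) was lost on leaving out any of 8 libraries, which were HG replicates 7, 16, 17 and 18 and HG + drugs replicates 1, 2, 4 and 8 (adjusted p up to 0.0648). It was also lost without NG in the fit (adjusted p = 0.069). Rab40b ranged from 6.43 to 12.6 FPKM (median 9.52), and 18 of 19 libraries were above the HG median (0.22, SE 0.06, adjusted p = 0.0175). Among the entries that are not GTPases, the Rab11 effector Rab11fip4 rose from a mean of 23.9 to 25.6 FPKM (0.10, SE 0.03, adjusted p = 0.043), a call lost on leaving out any of 10 HG libraries (replicates 1, 3, 4, 5, 9, 10, 11, 17, 18 and 19) or 10 HG + drugs libraries (replicates 1, 2, 6, 8, 10, 11, 12, 14, 15 and 20), with an adjusted p of up to 0.0783. Of the 13 ER and Golgi Rabs 0 rose and 0 fell, as at an unadjusted p under 0.05, beside 4.17% and 4.48% of all entries. Rab36 and Rab33a gave 0.06 (95% interval -0.02 to 0.13) and -0.06 (95% interval -0.20 to 0.07).

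Number 13 stood apart in this comparison. HG replicate 13 had the highest Rab27a (10.6 FPKM), Rab3c (36.7), Rab3d (91.9) and Rab7a (179) of all HG libraries, and HG + drugs replicate 13 had 7.99, 26.1, 77.7 and 166 FPKM, so that for all 4 genes the order of the groups was turned. Rab40b was turned as well, with 10.4 FPKM in HG replicate 13 and 6.43 FPKM in HG + drugs replicate 13. Without both libraries, a setting chosen after these data were seen, the same 5 GTPases rose, by 0.29 (Rab27a), 0.19 (Rab3c), 0.13 (Rab3d), 0.07 (Rab7a) and 0.26 (Rab40b). Calls over all entries also went up in that setting, from 445 to 639 that rose and from 478 to 616 that fell. β-cell markers moved here too, as 4 of 11 marker entries rose (36.4%, against 4.17% of all entries) and 0 fell (1 at an unadjusted p under 0.05), with a summed level of 59025 to 103049 FPKM in HG + drugs, and their part in the changes of the Rabs was not tested.

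The third comparison asked how far drug-treated cells in HG still differed from cells in NG. Of the granule Rabs, 4 of 7 were lower (Rab27b, Rab3a, Rab3c and Rab27a) and 0 were higher (0 also at an unadjusted p under 0.05). Over the 49 GTPases 6 were higher and 7 lower, which was 12.2% and 14.3%, against 12.7% and 14.6% of all entries tested. With the replicate number as a block in the fit, more GTPases were called lower, as were more of all entries. Those counts are given with the processing further on. The NG libraries are the same as in the first comparison, so its values and these are not independent.

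Rab3a was lower than the lowest NG library in 18 of 19 libraries (log2 fold change -0.31, SE 0.03, limma, Benjamini-Hochberg adjusted p = 4.7e-15). Rab27b had a difference of -0.42 (SE 0.09, adjusted p = 0.000457), Rab3c of -0.27 (SE 0.05, adjusted p = 1.11e-05) and Rab27a of -0.26 (SE 0.06, adjusted p = 0.00148). Rab27a with drugs thus lay between the groups, as its mean was 9.54 FPKM, compared with 11.6 FPKM for NG and 7.84 FPKM for HG. Rab3d, with means of 87.0, 78.1 and 84.4 FPKM, gave -0.04 against NG (95% interval -0.11 to 0.02). The granule Rabs together had 247 to 277 FPKM with drugs (median 269), and their mean share of the FPKM of all Rab GTPases was 12.0% ± 0.37 (SD, n = 19).

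Outside the granule class, Rab36 was lower (-0.31, SE 0.04, adjusted p = 1.76e-09), as were Rab4b (-0.22, SE 0.04, adjusted p = 3.37e-06) and Rab40c (-0.25, SE 0.07, adjusted p = 0.00582). Rab33a (0.36, adjusted p = 2.98e-05), Rab15 (0.26, adjusted p = 0.00012), Rab43 (0.19, adjusted p = 0.00168), Rab4a (0.14, adjusted p = 0.00107), Rab14 (0.12, adjusted p = 0.00579) and Rab24 (0.11, adjusted p = 0.0125) were higher. Rab14 had not been called with HG alone (0.06, 95% interval -0.0023 to 0.13). Rab24 was not higher in every set of samples, with -0.034 within the fourth set of 15 sample numbers. Rab7a gave -0.05 (adjusted p = 0.0583) and Rab40b a mean of 9.75 FPKM, compared with 10.2 FPKM in NG.

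**Figure D4:**
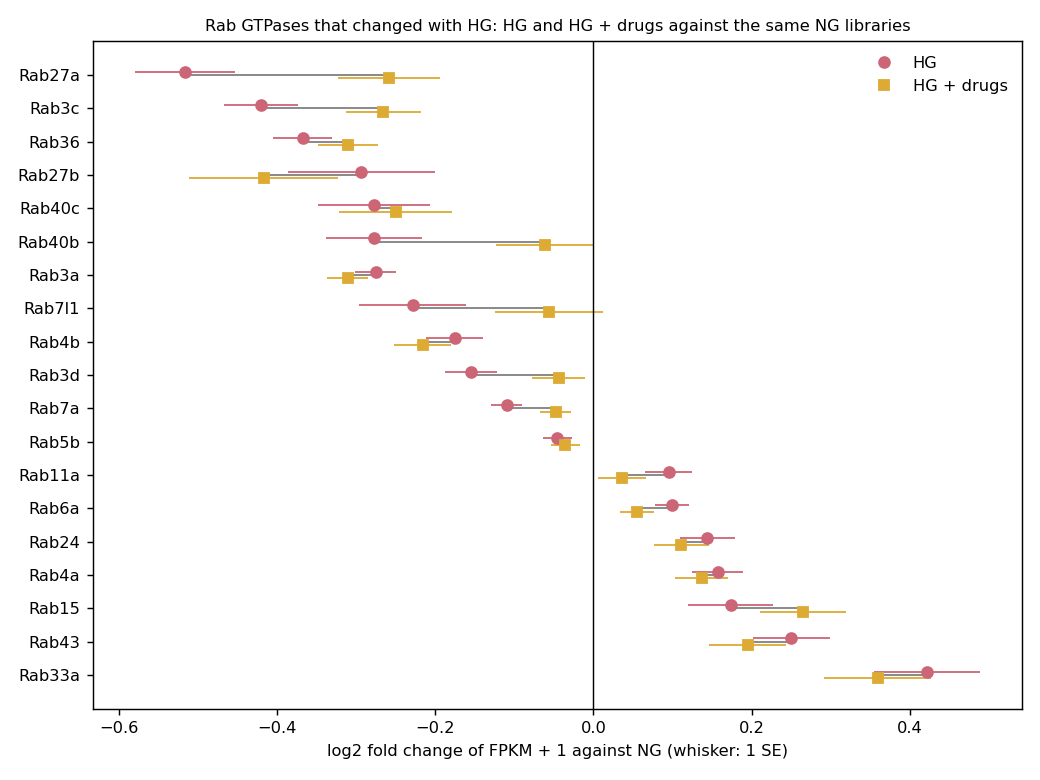
The 19 GTPases that changed with HG, with their log2 fold change (log2(FPKM + 1) scale) in HG (circles) and in HG + drugs (squares) against the same NG libraries. Whiskers are 1 SE. For Rab27a, Rab3c and Rab3d the square lies nearer to 0 than the circle, and for Rab3a and Rab27b it does not.

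From lists of proteins that act on or with the Rabs, 101 entries were tested. With HG, 13 rose (12.9%) and 29 fell (28.7%), compared with 18.2% and 22.0% of all entries tested. Of 8 entries listed for effectors of the granule Rabs, 4 rose (50.0%) and 3 fell (37.5%), beside the same 18.2% and 22.0%. The list takes in the RIM family gene Rims3, whose binding to Rabs was not examined. Rph3al (Noc2), which binds Rab3 and Rab27 on granules, ranged from 102 to 124 FPKM in NG (median 112) and from 79.6 to 94.4 FPKM in HG (median 86.2), without overlap (-0.36, SE 0.03, limma, Benjamini-Hochberg adjusted p = 2.01e-16). Sytl4 (granuphilin), which docks granules with Rab27a and had the highest level of these effectors, fell from a mean of 371 to 333 FPKM (-0.16, SE 0.03, adjusted p = 2.22e-05), and Sytl1, a further Rab27 effector, fell from 1.20 to 0.908 FPKM (-0.21, adjusted p = 0.00305).

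Other genes of this list rose. The small RIM family gene Rims3, listed by its family, rose from a range of 14.9 to 21.6 FPKM in NG (median 18.1) to 18.6 to 29.0 FPKM in HG (median 23.9). All 20 HG libraries were above the NG median (0.40, SE 0.05, adjusted p = 1.1e-09). Sytl5, another Rab27 effector, rose from a mean of 2.37 to 3.80 FPKM (0.51, SE 0.07, adjusted p = 4.63e-08). Myo5a, the myosin that carries granules on actin, rose by 0.32 (adjusted p = 5.62e-08), and Myrip, which links Rab27a to myosin, rose by 0.23 (adjusted p = 0.000541). With drugs, Rph3al (0.12, adjusted p = 0.00635) and Sytl1 (0.18, adjusted p = 0.0443) rose compared to HG and Rims3 fell (by 0.18, adjusted p = 0.0142), while the call for Sytl1 was lost in 5 of the other settings.

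Of 32 exchange factor entries, 4 rose (12.5%) and 8 fell (25.0%) with HG, shares near the 18.2% and 22.0% of all entries. Madd, the exchange factor for Rab3 proteins and Rab27, fell from a mean of 38.8 to 34.2 FPKM, and all 20 HG libraries were below the NG median (-0.17, SE 0.02, adjusted p = 2.95e-08). Trappc9, a subunit of a TRAPP complex of the Golgi, fell by 0.18 (adjusted p = 4.58e-06), and Dennd5a, an exchange factor for Rab39, rose by 0.15 (adjusted p = 4.8e-05). Of 27 entries for GTPase-activating proteins 2 rose (7.41%, against 18.2% of all entries) and 6 fell (22.2%, about the 22.0% of all entries), among them Sgsm1 (-0.34, SE 0.05, adjusted p = 1.48e-08) and Tbc1d8 (-0.21, adjusted p = 4.99e-08). Tbc1d10a, which acts on Rab27a and Rab35, fell by 0.21 (adjusted p = 0.00174).

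Of 24 entries for effectors of the endosomal and Golgi Rabs, 1 rose (4.17%) and 12 fell (50.0%) with HG, compared with 18.2% and 22.0% of all entries. The largest falls included Bicd1, a dynein adaptor of Rab6 (-0.20, adjusted p = 0.000211), Appl2 of early endosomes (-0.20, adjusted p = 0.000173), and Osbpl1a (-0.19, adjusted p = 3.58e-06) and Vps41 (-0.15, adjusted p = 1.01e-07), which work with Rab7. With drugs, Vps41 (0.10, adjusted p = 0.00274) and Osbpl1a (0.12, adjusted p = 0.0116) rose compared to HG. Of 10 entries for GDI, escort and prenylation, 2 rose with HG (20%, near the 18.2% of all entries). The list names 9 genes, as Rabif stands in 2 entries with the same level in NG. The number that fell was 0 (1 at an unadjusted p under 0.05), against 22.0% of all entries. Those that rose were the prenylated Rab acceptor family gene Arl6ip5 (0.10, adjusted p = 0.01) and the prenyltransferase subunit Rabggta (0.10, adjusted p = 0.0237). Rabggta was at -0.026 within the first set of 15 sample numbers. Chm, the escort protein that brings new Rabs to prenylation, rose with drugs from a mean of 11.1 to 12.3 FPKM (0.13, adjusted p = 0.0337).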

How the data were processed

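INS-1E RNA was measured in 59 libraries (20 NG, 20 HG, 19 HG + drugs), and HG + drugs replicate 16 is not analysed here. The library kit (TruSeq RNA v2) does not mark strand, so a gene and an overlapping partner cannot be separated. After FastQC 1.0.0 and adapter trimming, the authors aligned the reads to build rn5 in TopHat with Bowtie and deposited FPKM per RefSeq transcript from Cufflinks.

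Groups were taken from the labels. The 10660 entries that averaged 1 FPKM or more were tested on log2(FPKM + 1), that is with a pseudocount of 1. The test was a single limma fit of the 3 groups, with its trend and robust settings on (limma 3.58.1, R 4.3.3). Benjamini-Hochberg adjustment was over all entries within a comparison, with a threshold of 0.05. The procedure was tested on simulated data. Further software was Python 3.11.15, pandas 2.3.3, numpy 2.4.6 and matplotlib 3.10.9. The depth was derived from low FPKM values, 87.5% of which were whole reads within 0.05 reads at an effective length of the transcript less 202 bases.

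Members, classes and lists were chosen with earlier results of these data known. Named genes were each granule Rab, in each comparison the lowest adjusted p of each other class (4 entries) and of each list of regulators (3), the 6 highest levels and the 8 largest called changes per comparison, and other genes were named after their values were seen. Accessions of 61 of the 62 entries matched RefSeq GRCr8, 60 with the same symbol.

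Alternatives were a pseudocount of 0.1, no minimum or a minimum of 5 FPKM, quantile normalization, median-ratio scaling, sets of 15 sample numbers, a replicate block, only numbers present in all groups, FPKM summed per symbol, limma without its options, each comparison on its own groups and leaving out each library. Leaving out number 13 was added after seeing the data.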

Additional observations from a re-analysis of the deposited data

How the results depend on the processing

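With each comparison fitted on its own 2 groups, 3 Rab entries changed with drugs, all 3 of them GTPases that rose, compared with 6 and 5 in the common fit. Calls over all 10660 entries also went down in that setting, from 445 to 399 that rose and from 478 to 443 that fell with drugs. Of 1441 values of called genes under other settings, 2 were reversed. Rab24 in HG + drugs against NG was -0.034 within the fourth set of 15 sample numbers, and Rabggta in HG against NG was -0.026 within the first. Another 24 kept their sign and lost the call, and 10, all within single sets of 15 sample numbers and with no test there, kept their sign and moved by more than the spread between replicates. The cause was not tested.

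Samples of the same replicate number did not deviate together in every pair. Over 57 pairs the correlation of deviations had a mean of 0.14 and a minimum of -0.09, and 37 pairs were over 0.1. Of 59 libraries, 27 were closest to a library of their own number among those of the other groups. Libraries of the same number were thus alike in part. The labels do not say what a number stands for, and the main fit left it out, so that fit does not use this likeness. With the replicate block, 2 of the 49 GTPases tested fell with drugs compared to HG in place of 0. In HG + drugs against NG, 23 of 56 entries changed in place of 14, and 13 of the 49 GTPases were lower in place of 7. Calls over all 10660 entries also went up under the block, from 445 to 1015 that rose and 478 to 1081 that fell with drugs. Against NG they went from 1353 to 1836 higher and from 1557 to 2267 lower.

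On leaving out each library in turn, 20 to 22 entries changed with HG, 7 to 8 GTPases rose and 11 to 13 fell. With drugs, 4 to 7 entries changed, 4 to 5 GTPases rose and 0 fell in each case. Against NG, 13 to 16 entries differed with drugs, with 6 to 7 GTPases higher and 7 to 9 lower. Over all 10660 entries, 1869 to 1951 rose and 2253 to 2404 fell with HG in these fits. With drugs 366 to 565 rose and 418 to 552 fell, and against NG 1275 to 1393 were higher and 1433 to 1616 lower. Calls that were lost this way belong to Rab5b with HG, to Rab3c, Rab3d, Rab7a and Rab11fip4 with drugs, and to Rab11fip1 against NG. No limit of detection by depth was estimated.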

Other observations

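The GTPases under the minimum were not tested, and their levels are given as values. Rab19 ranged from 0.095 to 2.13 FPKM in NG (median 0.765), from 0.101 to 0.935 FPKM in HG (median 0.399) and from 0.266 to 1.32 FPKM with drugs (median 0.635), on average about 6.27 reads per library. Rab25 was listed at 0 in 8 NG, 4 HG and 9 HG + drugs libraries, Rab32 in 4, 7 and 2, and Rab38 in 16, 20 and 17.

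The sum of the levels of all Rab GTPases had a mean of 2234 FPKM in NG (range 2082 to 2359), 2181 FPKM in HG (2032 to 2316) and 2205 FPKM with drugs (2091 to 2291), and these ranges overlapped. Rab27a had a mean share of the FPKM of both Rab27 genes of 81.4% in NG, 79.8% in HG and 84.5% with drugs, and the ranges overlapped (74.4% to 89.9%, 68.8% to 86.8% and 73.1% to 95.3%).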
